A study of Mus musculus with 8 samples.

Results

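The expression of 10 genes that mark pluripotent cells, early embryos and germ cells was examined in 8 clones of mouse induced pluripotent stem (iPS) cells. The genes are Dppa2, Dppa4, Dppa5a, Ooep, Tex19.1, Utf1, Fbxo15, L1td1, Tcl1 and Eras. They were chosen by name, not by their signals, though earlier results of these data were known. Every probe set annotated to exactly 1 of these symbols was read, which gave 13 of the 45037 probe sets on the array that are not controls and 10 of the 13125 genes tested. Expression had been measured on Affymetrix mouse 430_2 arrays, with 1 array per clone. Of the clones, 4 were derived with ascorbic acid, or vitamin C, in the medium and 4 without it, and the comparison asks whether the supplement changed RNA levels in the resulting clones. All 8 clones came from embryonic fibroblasts (MEFs) of Col-OKSM mice, in which doxycycline switches on Oct4, Sox2, Klf4 and cMyc. Both groups grew on irradiated MEF feeders, in medium that contained serum, LIF and doxycycline, and feeders were reduced by preplating before RNA was taken. Nothing in the labels ties the clones of a group to separate embryos or cultures. The p-values therefore cover only how far these particular clones differ, part of which may be technical.

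Most of these genes are silent or nearly so in fibroblasts and are switched on in the course of reprogramming. Their timing differs: Utf1 is known as a late marker, while Fbxo15 is also active in cells that are only partly reprogrammed. DPPA2 and DPPA4 are related chromatin proteins with a SAP domain that act as a pair, and their genes lie side by side on chromosome 16. DPPA5A and OOEP belong to a family of proteins with a KH-type domain, a fold that often binds RNA, and their genes are neighbours on chromosome 9. Several of the genes have promoters that are methylated in somatic cells, and Tex19.1 is a textbook case of a gene controlled by promoter methylation.

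The label of the cells was checked against marker genes. Pou5f1 (Oct4), which encodes the central pluripotency factor, had signals of 9173 to 11379 with and 10958 to 11571 without ascorbic acid. Whether these include RNA from the inducible Oct4 was not tested. Nanog, which is not among the inducible factors, read 8281 to 10232 with and 9383 to 10023 without. Esrrb, an orphan nuclear receptor of naive pluripotency, read 4534 to 5584 with and 4631 to 5417 without. Of the trophectoderm regulators, Cdx2, Elf5 and Gata3 fell below the limit for dim signals, a mean of about 93.7 under which genes were not tested, and Gata3 lay between 4.72 and 15.7 with and between 4.11 and 12.3 without. Eomes, another such regulator, lay above that limit, at 349 to 479 with and 355 to 434 without, as did the epithelial keratin gene Krt8, at 1426 to 2340 with and 1602 to 2458 without. Fibroblast and feeder markers also gave signal: the sum over the 24 tested was 51606 to 63887 with and 60789 to 65611 without. Vim and Fn1 were the brightest of them, at means of 11871 and 11842 with ascorbic acid, while Col1a2 read 3744 and Thy1 480. How much of this sum came from fibroblasts was not tested. Array medians lay between 134 and 156. Over all 13125 tested genes only 3, or 0.0229%, passed the test described next, all of them higher with ascorbic acid.

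None of the 10 genes differed between the groups past the threshold. They were tested with limma on log2(signal + 16), together with all other genes, at a Benjamini-Hochberg adjusted p of 0.05. With ascorbic acid 5 of the 10 lay higher and 5 lower, with a median log2 difference of -0.04, against -0.0041 over all tested genes, of which 51.3% lay lower. Adjusted p-values of the 10 genes ran from 0.761 to 0.981. An unadjusted limma p under 0.05 was found for Ooep and Tcl1, 2 of 10 genes, where 5.8% of all tested genes had one. In no gene were the groups fully apart, against 3.62% of all tested genes. The 95% intervals bound how large a change the data allow: over the 10 genes the fold with over without ascorbic acid lay between 0.582, the lower bound for Tcl1, and 1.24, the upper bound for Dppa2. A doubling or a halving lay outside the interval of each gene on its brightest probe set. In bulk RNA, a lower share of cells that express a gene and less of its RNA per cell cannot be told apart.

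**Figure D1:**
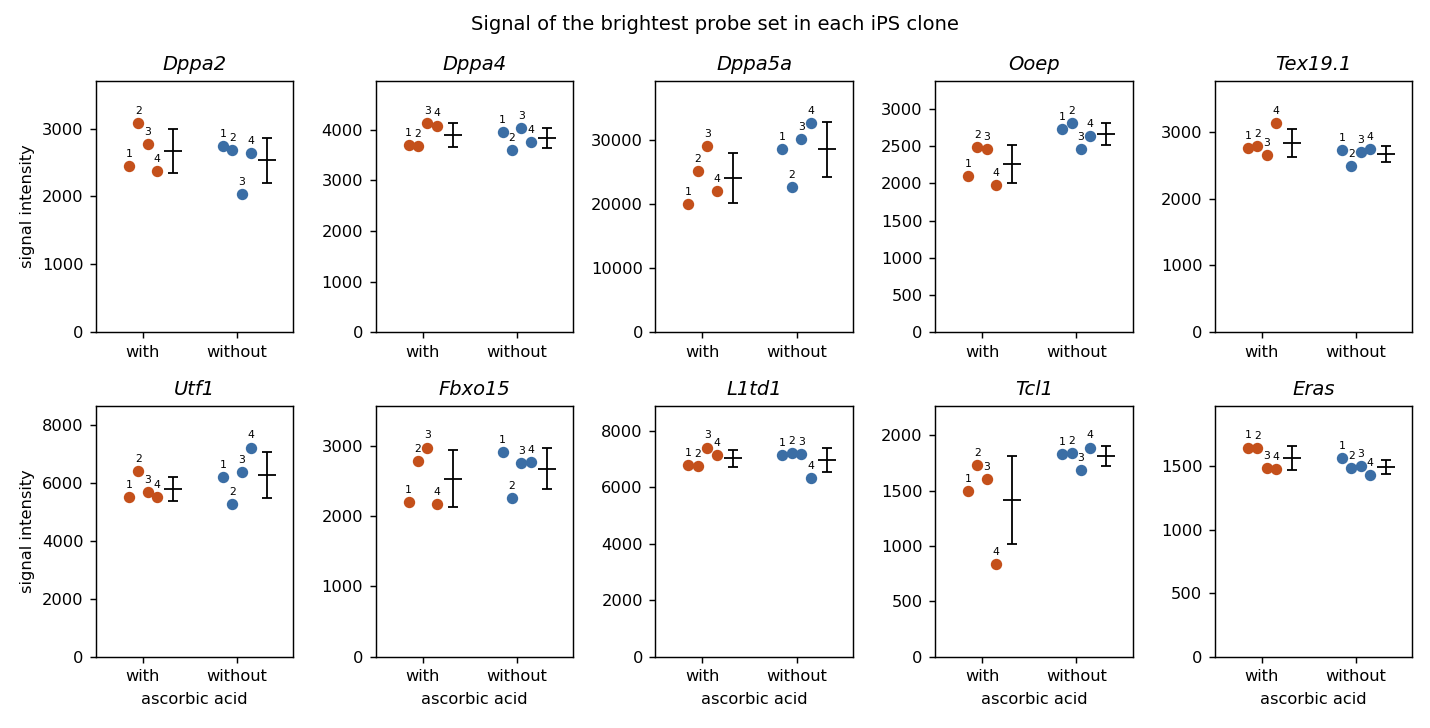
Signal intensity (linear axis from 0) of the brightest probe set of each gene in the 4 clones with ascorbic acid (left, orange) and the 4 without (right, blue), numbered by clone; bars give mean and SD. The groups overlap in all 10 panels, and the lowest Tcl1 point, 840, is clone 4 with ascorbic acid.

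The chromatin-associated members showed little difference. Dppa2 read 2450, 3084, 2767 and 2368 in clones 1 to 4 with ascorbic acid, against 2744, 2691, 2042 and 2647 without. Clone 3 without ascorbic acid was the lowest of all 8 and clone 2 with it the highest, and the groups overlapped. The log2 difference was 0.08 ± 0.10 (SE; limma, adjusted p = 0.941). A second Dppa2 probe set gave 0.06 ± 0.10; its _s_at suffix means that it may hybridise to more than 1 transcript. There the lowest clone was clone 4 without ascorbic acid, at 1580, and clone 3 read 2060, so the low reading of clone 3 was seen on 1 of 2 probe sets.

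Dppa4, the partner of Dppa2, read 3706, 3683, 4135 and 4083 with ascorbic acid and 3958, 3591, 4032 and 3754 without. The highest clone was 1.15 times the lowest, the narrowest range among the 10 genes, and the log2 difference was 0.02 ± 0.06 (SE; limma, adjusted p = 0.969). Although the 2 genes are neighbours and their proteins work together, Dppa4 and the brightest Dppa2 probe set did not move together across clones. Pearson's r was -0.40 and Spearman's rho -0.24 over 8 clones. This is a description over few arrays, and all of its points share the array scaling. Dppa4 ranged over only 0.20 log2, and the second Dppa2 probe set, where clone 3 was not low, was not used.

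Utf1, which encodes a chromatin-bound protein of embryonic stem cells and germ cells, gave readings on 3 probe sets that did not point the same way. On the brightest the clones read 5526, 6424, 5701 and 5532 with ascorbic acid and 6226, 5284, 6392 and 7231 without. The log2 difference there was -0.11 ± 0.09 (SE; limma, adjusted p = 0.888). The second probe set read 2117 ± 237 with and 1988 ± 22.1 without (SD, n = 4 each), a log2 difference of 0.08. The third, with the _x_at suffix, was dim, with 132 ± 37.6 with and 114 ± 85.8 without (SD, n = 4 each) and a log2 difference of 0.37 with a 95% interval of -0.45 to 1.19. No direction can therefore be given for Utf1. Averaging its probe sets turned the sign to 0.11 (limma, adjusted p = 0.916).

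**Figure D2:**
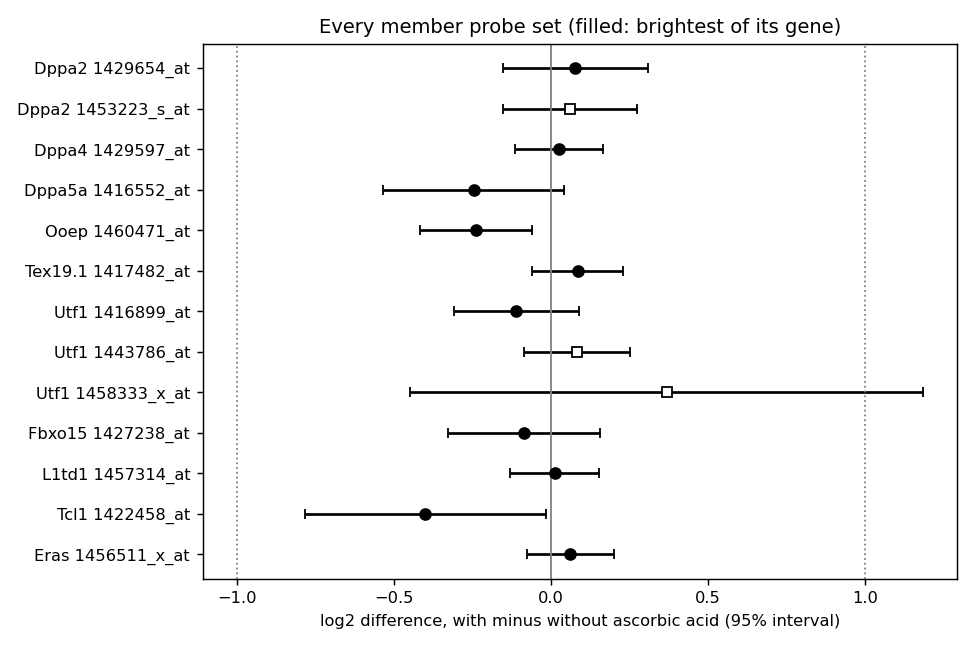
Log2 difference, with minus without ascorbic acid, of all 13 probe sets with 95% intervals from the fit over all probe sets above the limit for dim signals; filled circles are the brightest probe set of each gene, open squares the others. The intervals of Ooep and Tcl1 lie below 0 without adjustment, and the widest interval is that of the dim Utf1 probe set.

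Among the RNA-binding and oocyte members, Ooep had the smallest p of the 10 genes. Ooep encodes a component of the subcortical maternal complex, a protein assembly of the egg and early embryo. Its signal was 2100, 2486, 2469 and 1983 with ascorbic acid, against 2726, 2815, 2466 and 2641 without. Clones 1 and 4 with ascorbic acid lay below all others, and clones 2 and 3 with it overlapped only with clone 3 without it. The mean was 2260 ± 257 with and 2662 ± 149 without (SD, n = 4 each). The log2 difference was -0.24 ± 0.08 (SE), a fold of 0.847, with an unadjusted limma p of 0.0112 and an adjusted p of 0.761. An exact two-sided permutation test over the 70 assignments of clones gave p = 0.0857 (n = 4 each), where 0.0286 is the smallest possible.

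Dppa5a, the neighbour and relative of Ooep, read 19959, 25122, 29020 and 21981 with ascorbic acid and 28463, 22658, 30089 and 32598 without. The mean was 24021 ± 3953 with and 28452 ± 4220 without (SD, n = 4 each), and the log2 difference was -0.25 ± 0.13 (SE; limma, adjusted p = 0.843). Its probe set was among the 27 brightest of every array. The order of the 8 clones by Dppa5a was the same as their order by the share of array signal held by the 100 brightest probe sets, counted without Dppa5a. That share was 6.08%, 6.98%, 7.79% and 6.39% in clones 1 to 4 with ascorbic acid and 7.66%, 6.60%, 7.91% and 8.35% without. After quantile normalization, which gives all arrays the same distribution of signals, the spread of Dppa5a over the 8 clones was 0.14 log2, against 0.71 as deposited, and the log2 difference between groups was -0.05 (limma, adjusted p = 0.850). A probe set near the top of every array takes a similar value on each after this step, whatever the source of its spread. The smaller spread therefore does not show where the spread came from. The log2 range of Ooep was 0.51 after quantile normalization and 0.50 as deposited, and its log2 difference was -0.25 and -0.24 in the same order of settings.

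L1td1, an RNA-binding protein derived from the LINE-1 retrotransposon, read 6787, 6750, 7408 and 7149 with ascorbic acid and 7154, 7202, 7187 and 6322 without. The log2 difference was 0.01 ± 0.06 (SE; limma, adjusted p = 0.981), the smallest of the 10. Tex19.1, a germline gene of mammals that restrains retrotransposons, read 2765, 2789, 2651 and 3139 with ascorbic acid and 2734, 2487, 2706 and 2751 without. Its log2 difference was 0.09 ± 0.06 (SE; limma, adjusted p = 0.881), with clone 4 with ascorbic acid the highest of all and clone 2 without it the lowest.

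Fbxo15, an F-box protein gene and classical target of Oct4 and Sox2, was used as a reporter for the earliest iPS cells. It read 2199, 2781, 2975 and 2173 with ascorbic acid and 2915, 2256, 2759 and 2768 without. Clones 1 and 4 with and clone 2 without ascorbic acid were low, while the other 5 clones lay between 2759 and 2975. The log2 difference was -0.09 ± 0.11 (SE; limma, adjusted p = 0.936). The same 3 clones were the lowest for Dppa5a, and Pearson's r between both genes was 0.86, with a Spearman's rho of 0.62 over 8 clones. They were also the 3 clones with the lowest share of signal in the 100 brightest probe sets, and the part of this share in the Fbxo15 pattern was not tested. The log2 range of Fbxo15 was 0.42 after quantile normalization and 0.45 as deposited.

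The signalling members held the largest and the smallest SD within groups when all 8 clones were kept. Eras, an X-linked gene for a Ras protein that is active without a signal, had the smallest. It read 1648, 1643, 1485 and 1481 with ascorbic acid, against 1566, 1490, 1504 and 1429 without. The log2 difference was 0.06 ± 0.06 (SE; limma, adjusted p = 0.914). Its only probe set has the _x_at suffix and may also bind other transcripts.

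Tcl1, whose protein binds and augments the kinase AKT, had the largest difference and the largest spread among the 10 genes, and both ranks rested on 1 clone. It read 1493, 1733, 1603 and 840 with ascorbic acid, against 1828, 1841, 1684 and 1889 without. Clone 4 with ascorbic acid was far below the other 7 clones, and of the others with ascorbic acid only clone 2 reached into the range without. The log2 difference was -0.40 ± 0.17 (SE), with an unadjusted limma p of 0.0411 and an adjusted p of 0.839, and the exact two-sided permutation p was 0.0571 (n = 4 each). Without clone 4 the mean with ascorbic acid was 1610 ± 120 (SD, n = 3), and the log2 difference was -0.17 (limma, adjusted p = 0.943, unadjusted p = 0.0361). In that fit the differences of Dppa5a, at -0.21, and Ooep, at -0.18, were larger in size than that of Tcl1. In clone 4 Tcl1 lay 0.82 log2 below the next lowest clone. In that clone 15 of 13125 tested genes, or 0.114%, lay at least as far below the other 7, Tcl1 included, and in the other clones 13 to 35 did. Of the 4441 genes with a mean signal of at least 1000, 2 did so in that clone, Tcl1 included, and 0 to 2 in the other clones.

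**Figure D3:**
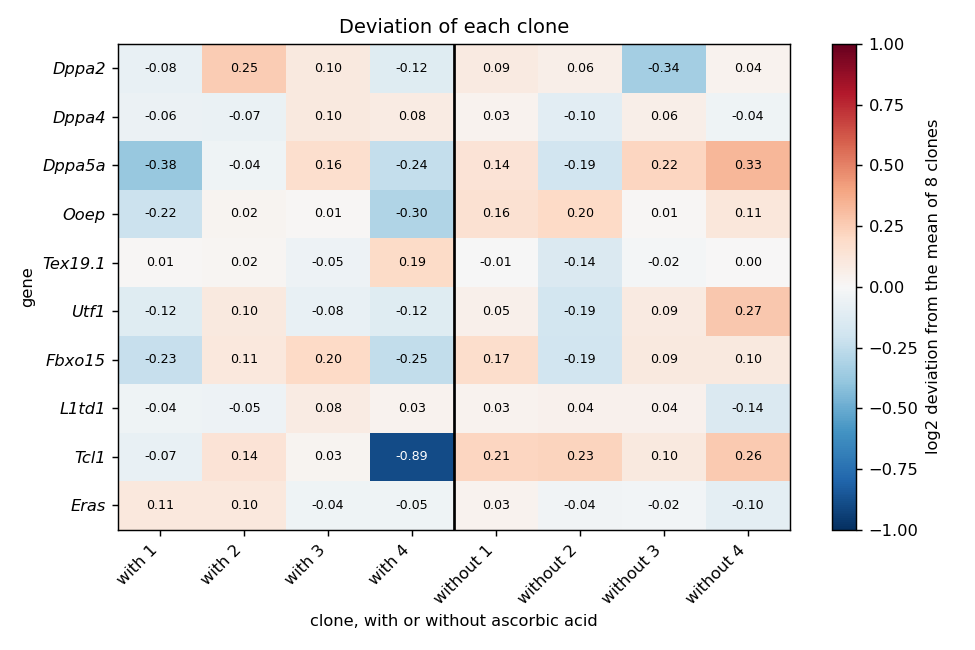
Log2 deviation of each clone (columns, 4 with ascorbic acid left of the line, 4 without right of it) from the mean of all 8 clones for each gene (rows); red is higher, blue lower. The darkest cell is Tcl1 in clone 4 with ascorbic acid, at -0.89, and Dppa5a, Utf1 and Fbxo15 are all low in clones 1 and 4 with and clone 2 without.

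Clones were compared over the 10 genes. Clone 4 with ascorbic acid held the lowest value for 3 genes (Ooep, Fbxo15 and Tcl1) and the highest for Tex19.1, and clone 2 without ascorbic acid held the lowest for 3 (Dppa4, Tex19.1 and Utf1). The median deviation of the 10 genes from their own means was -0.07, 0.06, 0.06 and -0.12 log2 in clones 1 to 4 with ascorbic acid and 0.07, -0.07, 0.05 and 0.07 without. No clone was low throughout: clone 4 with ascorbic acid lay below the mean in 7 of 10 genes and clone 1 with it in 8. Ooep and Tcl1, the 2 genes with an unadjusted p under 0.05, ranked the clones alike, with a Pearson's r of 0.86 and a Spearman's rho of 0.90 over 8 clones. Tex19.1 ran against both, at a Pearson's r of -0.78 with Ooep and -0.83 with Tcl1 and a rho of -0.57 and -0.43. Clone 4 with ascorbic acid was lowest for Ooep and Tcl1 and highest for Tex19.1, and these values were not computed without it. Over all 45 pairs of the 10 genes the median r was 0.0072, and 24 pairs had an r above 0, so the genes did not rise and fall as a block.

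The spread between clones differed widely among the 10 genes. The SD within groups was 0.07 log2 for Eras, 0.08 for L1td1 and Dppa4, 0.09 for Tex19.1, 0.13 for Ooep, 0.15 for Utf1, 0.19 for Dppa2, 0.20 for Fbxo15, 0.23 for Dppa5a and 0.34 for Tcl1. The median was 0.15 over all tested genes and 0.10 over the 4441 genes with a mean signal of at least 1000, the range in which all 10 lie. Of those bright genes 99.3% varied less than Tcl1, and 21.8% varied less than Eras. Without clone 4 with ascorbic acid the SD of Tcl1 was 0.09 log2, and 39.3% of the bright genes varied less. Dppa5a then had the largest SD of the 10 genes, at 0.25, and Tex19.1 the smallest, at 0.06.

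**Figure D4:**
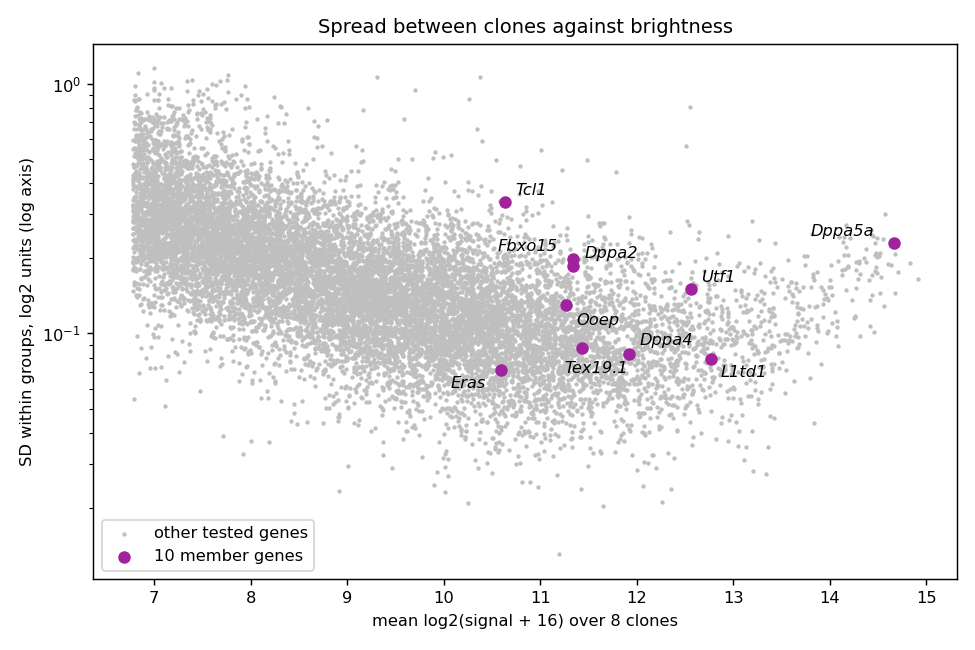
SD between clones within groups (log2 units, log axis) against mean log2(signal + 16) over 8 clones for the 10 genes (purple) and all other tested genes (grey). Tcl1, at an SD of 0.34, lies near the top of the genes of its brightness, a place it does not keep without clone 4 with ascorbic acid (0.09), while Eras, at 0.07, lies among those with little spread.

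The promoter sequences of 6 of the 10 genes (RefSeq, build GRCm38.p6) were searched over the 250 bases before the annotated start. Dppa2, Dppa4 and Dppa5a had no sequence in the set used here. Fbxo15, a target of Oct4 and Sox2, was left out of the search, so the motif counts below do not cover it. The windows of Tex19.1, Ooep and Tcl1 are shown, the first because its gene is a known target of promoter methylation and the others because their genes had the smallest p-values. They lie at chr11:121145893-121146142 on the plus strand for Tex19.1, chr9:78378589-78378838 on the minus strand for Ooep and chr12:105222738-105222987 on the minus strand for Tcl1. Each is written 5′ to 3′, with CpG dinucleotides, the sites of DNA methylation, in capitals.
Tex19.1: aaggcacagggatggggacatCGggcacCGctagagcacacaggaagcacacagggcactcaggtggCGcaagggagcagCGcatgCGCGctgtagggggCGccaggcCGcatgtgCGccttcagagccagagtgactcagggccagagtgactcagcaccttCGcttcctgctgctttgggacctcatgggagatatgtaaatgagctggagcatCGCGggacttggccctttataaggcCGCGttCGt
Ooep: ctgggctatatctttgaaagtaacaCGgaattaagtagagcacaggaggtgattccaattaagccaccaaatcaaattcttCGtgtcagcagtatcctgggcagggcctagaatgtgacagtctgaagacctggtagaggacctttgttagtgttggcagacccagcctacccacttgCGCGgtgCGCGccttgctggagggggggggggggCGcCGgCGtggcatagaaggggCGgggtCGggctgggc
Tcl1: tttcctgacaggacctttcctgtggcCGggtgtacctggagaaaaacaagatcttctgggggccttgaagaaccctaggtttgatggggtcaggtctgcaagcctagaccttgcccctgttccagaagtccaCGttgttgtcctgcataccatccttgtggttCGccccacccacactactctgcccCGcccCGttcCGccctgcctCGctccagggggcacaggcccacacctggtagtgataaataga
Tex19.1 held 15 CpGs in this window, Utf1 14, Ooep and L1td1 11 each, Tcl1 7 and Eras 6, against a median of 6 over 32841 promoter windows of the same length. Thus 72.7% of windows held fewer CpGs than Tex19.1 and 53.7% fewer than Tcl1. The GC box GGGCGG, which itself contains a CpG, was found on either strand in 4 of the 6 windows (1 in Ooep, 4 in Utf1, 2 each in Tcl1 and Eras) and in 32.7% of all windows. TATAAA, on either strand, was found only in Tex19.1 among the 6 and in 12.4% of all. The octamer ATGCAAAT, searched on both strands, was in none of the 6 and in 1.6% of all. These are matches of letters in a short window, and methylation was not measured in this series.

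Genes linked to the 10 by function were read from lists, and 0 members of any list passed the test in either direction. Counts at an unadjusted limma p under 0.05 are given where there were any, beside 5.8% of all tested genes. Among 12 core pluripotency factors, 1 lay higher and 11 lower with ascorbic acid, with a median log2 difference of -0.13 and 3 unadjusted p-values under 0.05. Tbx3 read 1345 ± 93.9 with and 1639 ± 107 without, and Klf2 5779 ± 572 with and 7130 ± 526 without it (SD, n = 4 clones each; adjusted p from limma = 0.625 and 0.702). Both are transcription factors of naive pluripotency, and in both the groups did not overlap, as in 3.62% of all tested genes. Pou5f1, Nanog, Sox2 and Klf4 had log2 differences of -0.14, -0.12, -0.07 and -0.08 (limma, adjusted p = 0.843, 0.843, 0.901 and 0.907). Whether the Pou5f1, Sox2 and Klf4 signals include RNA from the inducible factors was not tested. The Sox2 difference turned to 0.038 under quantile normalization. The same scaling gave -0.08 for Pou5f1, -0.08 for Nanog and -0.04 for Klf4, and a median of -0.09 for the core list, with 10 of 12 lower.

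Of 15 further Oct4 and Sox2 targets and stem cell factors, the class to which Utf1 and Fbxo15 belong, 5 lay higher and 10 lower, with a median of -0.10, or -0.05 under quantile normalization, and 2 unadjusted p-values under 0.05. These were the zinc finger gene Zfp296, at 778 ± 55.8 with and 943 ± 62.9 without, and the Nodal antagonist Lefty2, at 818 ± 13.5 with and 1009 ± 203 without it (SD, n = 4 clones each; adjusted p from limma = 0.749 and 0.827). The groups of Zfp296 and Lefty2 did not overlap either. Dppa3, a maternal factor that shields methylation in the early embryo and the only other Dppa gene tested, averaged 1043 ± 81.4 in clones with and 1109 ± 339 in clones without ascorbic acid (SD, n = 4 clones each), at a limma adjusted p of 0.975.

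Among genes of the subcortical maternal complex and related oocyte proteins, 5 of 10 with a probe set were above the limit for dim signals, of which 2 lay higher and 3 lower (median -0.05), with 2 unadjusted p-values under 0.05. Khdc3, which encodes a partner of OOEP in the complex, read 893, 771, 868 and 615 with ascorbic acid and 1063, 870, 995 and 892 without. As for Ooep, clone 4 with ascorbic acid was lowest, and the log2 difference was -0.28 ± 0.11 (SE; limma, unadjusted p = 0.0281, adjusted p = 0.820). Zbed3 went the other way, at 1024 ± 205 with and 811 ± 49.8 without it (SD, n = 4 clones each; adjusted p from limma = 0.773). Nlrp5, a core part of the complex in oocytes, did not exceed 118 in any clone and was below the limit, so the complex was not read as a whole.

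Of 16 germline genes that respond to promoter methylation, the class of Tex19.1, 9 lay higher and 7 lower, with a median of 0.03 and 0 unadjusted p-values under 0.05. Ddx4, a germ cell RNA helicase, read 698 ± 128 with and 577 ± 46.2 without, and Dazl, a germ cell RNA-binding protein, 475 ± 115 with and 575 ± 34.2 without it (SD, n = 4 clones each; adjusted p from limma = 0.843 for both). Dazl was lowest in clone 4 with ascorbic acid on both of its probe sets, at 311 and 332. Of 5 tested genes reported downstream of Dppa2 and Dppa4, 2 lay higher and 3 lower (median -0.06). Calcoco2, which encodes an autophagy receptor, read 287 ± 49.0 with and 346 ± 40.5 without it (SD, n = 4 clones each; adjusted p from limma = 0.843). Zfp352, a gene of the cleavage-stage embryo, went the other way, at 119 ± 28.9 with and 90.2 ± 28.8 without it (SD, n = 4 clones each; adjusted p from limma = 0.847).

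For the partners of Tcl1 and Eras, 6 of 13 genes of the AKT pathway and the Tcl1 family lay higher and 7 lower (median -0.02), with Foxo3, a transcription factor restrained by AKT, at 0.15 ± 0.07 log2 and Pik3ca, a catalytic subunit of PI3 kinase, at -0.20 ± 0.11 (SE; limma, adjusted p = 0.843 for both). Of 5 genes of the Ras pathway, 4 for other Ras proteins and 1 for the kinase Braf, 4 lay higher and 1 lower (median 0.03), with Rras at -0.09 and Rras2 at 0.05. Tcl1b3, a gene of the Tcl1 cluster, did not share the low reading of Tcl1 in clone 4 with ascorbic acid, where it read 7251. Its lowest clone was clone 1 without ascorbic acid, at 2376, and the other 7 clones lay between 5063 and 7251. Its probe set also has the _x_at suffix, so RNA of close copies in the cluster cannot be told apart. Glrx5, a glutaredoxin gene close to the cluster on chromosome 12, read 2635 to 3098 with and 2697 to 2816 without, and clone 4 with ascorbic acid was at 2700.

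The remaining lists also had 0 members past the threshold. Of 7 subunits and partners of the SCF ubiquitin ligase, in which FBXO15 is an F-box protein, 3 lay higher and 4 lower (median -0.01), with Skp1 at -0.09 and Cul1 at 0.07. Of 9 RNA-binding and retrotransposon-linked partners of L1td1, Utf1 and Tex19.1, 2 lay higher and 7 lower (median -0.03), with Igf2bp1 at 0.14 and Lin28b at 0.31. Median centring of the arrays raised the medians of the SCF, AKT and RNA-binding lists to 0.023, 0.014 and 0.0014, so none of these has a settled direction. Lineage markers gave 2 higher and 5 lower for trophectoderm (median -0.08; Hand1 at 0.20, Tfap2c at -0.11), 6 and 4 for primitive endoderm (0.03; Gata6 at 0.31, Lama1 at -0.27), and 5 and 1 for the epiblast after implantation (0.09; Pou3f1 at 0.40, Lef1 at 0.19), where 1 unadjusted p was under 0.05. All of these are log2 differences.

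Fibroblast and feeder markers stood beside these results, of which 20 of 24 lay lower in the clones with ascorbic acid, at a median of -0.18 log2 and 8 unadjusted p-values under 0.05. Of all tested genes 5.8% had such a p. Postn, a matrix protein, was at -0.38, with groups that did not overlap, and Twist1, a mesenchymal transcription factor, at 0.52. The summed signal of the list was lowest in clone 4 with ascorbic acid, at 51606, and highest in clone 1 without it, at 65611. The mean log2 value of the same genes was lowest in clone 3 with ascorbic acid, at 9.82, against 9.91 in clone 4. It was highest in clone 2 without ascorbic acid, at 10.22, against 10.18 in clone 1. The clone in which Tcl1 and Ooep were lowest, clone 4 with ascorbic acid, was thus lowest by the sum but not by the mean log2 value. Dcn and Lum, both fibroblast proteoglycans, fell below the limit for dim signals, at 13.8 to 170 with and 20.5 to 165 without ascorbic acid for Dcn and at most 70.8 in any clone for Lum. The part of feeder RNA in the levels of the 10 genes was not tested.

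**Figure D5:**
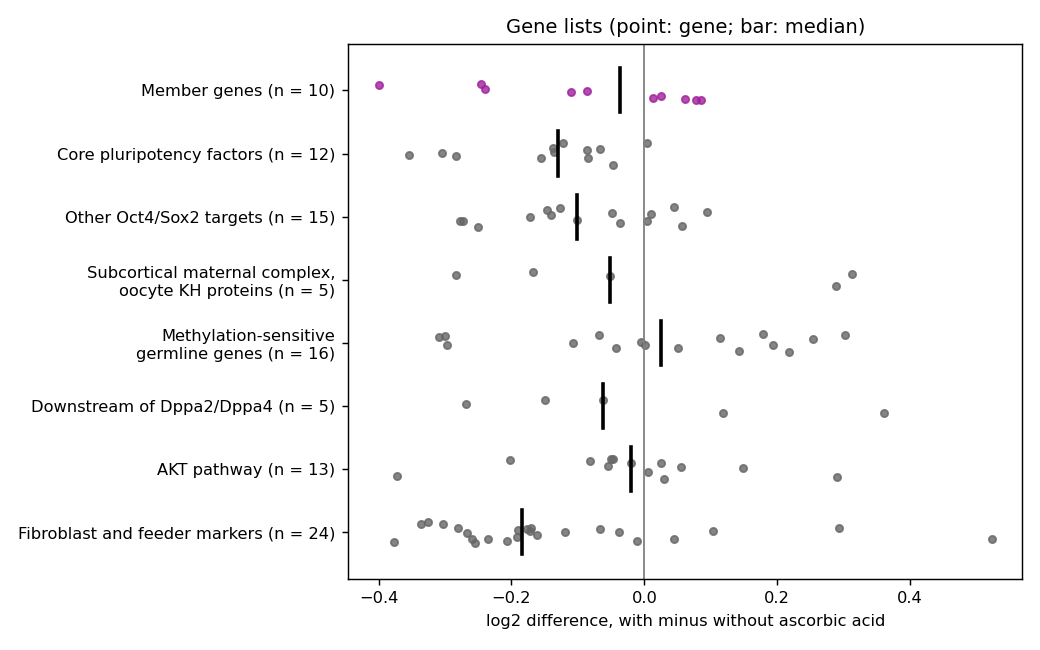
Log2 difference, with minus without ascorbic acid, of each tested gene (points) in the 10-gene set and 7 linked lists, with the median of each as a bar. The 10 genes spread from -0.40 (Tcl1) to 0.09 (Tex19.1) around a median of -0.04, and the core pluripotency factors and fibroblast markers lie mostly below 0.

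The genes whose pattern over the 8 clones was most like the mean of the 10 were Gsta4, Sh3bgrl3 and Cacna1h, at a Pearson's r of 0.99, 0.98 and 0.97. In all, 89 other genes had an r above 0.9 with this mean. These are the top ranks among all tested genes over 8 arrays that share their scaling, and they are given as a description.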

How the data were processed

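Signal intensities per probe set came from 8 Affymetrix mouse 430_2 arrays, 1 per clone. The deposited intensity values are linear, and each array's mean after trimming 2% at each end is 500.003, which fixes its overall level but not its distribution of signals. Per the submitters' processing notes GCOS, the Affymetrix software, was used; the sources used here do not give its version or how it was set.

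The 64 control probe sets were left out. Of the rest, 34945 carry 1 gene symbol (99.4% matched RefSeq GRCm38.p6 by Entrez ID), 932 several and 9160 none, and only the first were used under a gene name. Signals were taken as log2(signal + 16), so folds understate changes of dim genes. Array medians spanned 0.199 log2, within the limit of 0.2 set for keeping the deposited scaling. Probe sets in the lowest 40% by mean log2 value were left out (signal of about 93.7); all 13 read here lay above. A first run took this mean on the signals, which left 13129 genes; the log2 mean replaced it after those values were seen, and the first form is kept as an alternative. The probe set with the highest mean signal stood for each gene. limma 3.58.1 (R 4.3.3; lmFit, eBayes with intensity trend, two-sided) compared clones with minus without ascorbic acid, adjusted over 13125 genes, or 27022 probe sets for single probe sets. The fit was tested on simulated data, and the number of arrays limits its precision. Figures used matplotlib 3.10.9.

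The genes and lists were chosen with earlier results of these data known. Named were all 10 genes, the 2 with the smallest p of each list, Pou5f1, Nanog, Sox2 and Klf4, and the 3 most like the mean of the 10; Esrrb, Cdx2, Elf5, Gata3, Eomes, Krt8, Nlrp5, Tcl1b3, Glrx5, Dcn, Lum and the clone values of Khdc3 and Dazl were added after their values were seen, as were the single-clone counts and the spread without clone 4 for Tcl1, the setting of Dppa5a against the brightest probe sets, and the promoter windows and motifs. The alternatives comprised median centring, quantile normalization, pseudocounts of 64 and 1, no or a 60% filter, the mean of probe sets, no _s_at or _x_at probe sets, eBayes without trend or robust, array weights, the clone number as a block, and leaving out each clone.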

Additional observations from a re-analysis of the deposited data

Results flagged for a closer look

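A rule for single clones was applied to 26 groups of 4 clones (13 probe sets, each with and without ascorbic acid). It flagged 4, or 15.4%. The rule set the gap to the nearest other clone against the range of the group, with ratios of 0.83 to 0.94 in those flagged. It can therefore flag a small gap where the other 3 clones lie close together. Its nominal chance level is about 5%, and the share it flags over all probe sets was not counted. All 4 flagged readings were low ones in the group without ascorbic acid. Dppa2 read 2042 in clone 3, against 2647 to 2744 in the others, and on its second probe set 1580 in clone 4, against 2059 to 2110. Tex19.1 read 2487 in clone 2, against 2706 to 2751. L1td1 read 6322 in clone 4, against 7154 to 7202. Tcl1 in clone 4 with ascorbic acid was not among these 4.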

How the results depend on the processing

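None of the 10 genes passed under any of the 21 alternatives, of which leaving out _s_at and _x_at probe sets gave no value for Eras, and the smallest adjusted p was 0.575 (limma, Ooep without clone 2 with ascorbic acid). Over the 10 genes and the alternatives, 6 of 209 log2 differences changed sign. Averaging probe sets turned Utf1 to 0.11. Leaving out each clone gave -0.022 to 0.13 for Dppa2, -0.0061 to 0.052 for Dppa4, -0.033 to 0.032 for L1td1 and -0.036 to 0.11 for the second Dppa2 probe set. It also moved, with no change of sign, Fbxo15 (-0.17 to -0.017), Utf1 (-0.19 to -0.040), Dppa5a (-0.35 to -0.16), Tcl1 (-0.51 to -0.17) and Tex19.1 (0.036 to 0.12). Under quantile normalization and median centring none of the 10 changed sign. The groups of Ooep and Tcl1 did not overlap under quantile normalization, 2 genes against 0, where 3.75% of all tested genes did not; leaving out single clones gave 0 to 2, beside 5.99% to 7.84% of all. The unadjusted p was under 0.05 in 20 of 21 alternatives for Ooep and in 14 of 21 for Tcl1. Median centring ended it for both, and no dim filter, no trend, robust estimation and leaving out clone 1, 2 or 4 without ascorbic acid ended it for Tcl1. Dppa5a came under 0.05 in 2 alternatives (leaving out clone 3 of those with ascorbic acid, or clone 2 of those without) and Utf1 in 1 (leaving out the same clone 2). Over all genes 1 passed without the trend and 1 with robust estimation, against 3; leaving out single clones gave 2 to 4. The cause was not tested. The dim filter on mean signal, an alternative chosen after seeing the data, left 3 genes past the threshold over all and 0 of the 10. With the clone number as a replicate block 3 genes passed over all and 0 of the 10. Same-numbered clones correlated at -0.17 to 0.01 in their deviations, and none was most like its own number. The labels do not say whether a shared number marks a shared source, and correlations of deviations cannot exclude one. Differences of the size seen here did not pass the threshold with 4 arrays per group.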
